A study of Mus musculus with 5 samples.

Results

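The mevalonate pathway enzymes up to squalene were described in ID8 cells, a line derived from mouse ovarian surface epithelium that grows as tumours in the peritoneum and causes ascites. The enzymes were named by their place in the pathway, from acetyl-CoA to squalene: Acat2, Hmgcs1, Mvk, Pmvk, Mvd, Idi1, Fdps, Fdft1 and Ggps1. Every probe set whose platform annotation named 1 of these genes and no other was taken, which gave 21 probe sets for 8 of the 9 genes, out of 22626 probe sets and 12393 named genes in all. No probe set was named for Acat2, so its level is not analysed here and only its promoter window is used. Total RNA had been measured on Affymetrix mouse arrays. The FBS group was parental ID8 cells in DMEM with 10% fetal bovine serum (3 arrays, replicates 1, 2 and 3). The ascites group was ID8 cells grown for 7 days in DMEM with 10% ascites fluid taken from mice bearing ID8 tumours (2 arrays, replicates 2 and 3). The labels do not settle how long the FBS culture lasted or whether the ascites medium held serum as well. All arrays came from 1 cell line, and nothing says that replicates were separate cultures, so p values reflect only how these arrays vary, and that variation may be technical.

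The mevalonate pathway builds isoprenoids from acetyl-CoA in the cytosol. Acetyl-CoA units are joined and reduced to mevalonate, and phosphorylation and decarboxylation of mevalonate give isopentenyl diphosphate, the building block that is then joined into longer chains. Farnesyl diphosphate is the branch point: squalene synthase commits it to sterols, and geranylgeranyl diphosphate synthase lengthens it for the anchoring of small GTPases to membranes. In cells with little sterol, the transcription factor SREBP2 is released from the endoplasmic reticulum and drives genes of this pathway by binding sterol regulatory elements (SREs), usually together with NF-Y and Sp1 at nearby sites.

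Promoter sequence is shown for 3 enzymes whose levels were all lower in ascites and whose window lay outside the annotated gene. The windows are the 250 bases before the RefSeq transcript start (build GRCm38), written 5′ to 3′ on the gene's strand. Capitals mark an SRE-like match (TCACNCCAC) or an NF-Y box (CCAAT, which reads ATTGG on the other strand). Hmgcs1 lies at chr13:119690101-119690350 (plus strand), Mvd at chr8:122443423-122443672 (minus strand) and Idi1 at chr13:8885356-8885605 (plus strand).
Hmgcs1: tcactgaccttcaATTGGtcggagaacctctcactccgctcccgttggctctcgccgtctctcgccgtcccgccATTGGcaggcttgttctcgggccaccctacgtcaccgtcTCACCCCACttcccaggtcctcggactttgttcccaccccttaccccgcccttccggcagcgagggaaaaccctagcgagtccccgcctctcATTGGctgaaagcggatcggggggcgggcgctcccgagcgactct
Mvd: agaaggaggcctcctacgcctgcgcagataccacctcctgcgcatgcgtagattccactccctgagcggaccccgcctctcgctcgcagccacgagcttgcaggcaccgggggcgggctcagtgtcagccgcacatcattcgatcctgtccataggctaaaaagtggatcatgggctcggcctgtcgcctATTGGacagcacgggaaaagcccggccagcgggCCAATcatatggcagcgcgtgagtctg
Idi1: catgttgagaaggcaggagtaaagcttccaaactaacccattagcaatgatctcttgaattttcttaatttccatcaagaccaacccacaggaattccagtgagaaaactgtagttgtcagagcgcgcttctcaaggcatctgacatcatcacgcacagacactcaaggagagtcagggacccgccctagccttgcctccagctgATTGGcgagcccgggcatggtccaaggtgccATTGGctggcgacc

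The Hmgcs1 window held the SRE-like letters TCACCCCAC from 137 to 129 bases before the start, with NF-Y boxes on either side, from 176 to 172 and from 45 to 41 bases before it. The strict SRE-like motif TCACNCCAC, searched on both strands, was found in 1.05% of all 32851 promoter windows of this length, and its relaxed form TCACNCNAC, which takes in every strict match, in 2.26%. Hmgcs1 was the only one of the 7 enzymes with a window in the table (Acat2, Hmgcs1, Mvk, Pmvk, Mvd, Idi1 and Ggps1) to hold either form. NF-Y boxes were found in 33.8% of all windows and in those of 6 of these 7 genes: 5 boxes for Mvk, 3 each for Hmgcs1 and Ggps1, 2 each for Mvd and Idi1, and 1 in 1 of the 2 Pmvk windows. The Sp1 letters GGGCGG were found in 32.7% of all windows and in those of 5 of the 7 genes (Acat2, Hmgcs1, Mvk, Mvd and Idi1, not Pmvk or Ggps1), and the E-box CACGTG, found in 6.02%, was in none of the enzymes' windows. The windows of Mvk and Ggps1, and the Pmvk window without a box, overlapped the annotated gene, and the other windows did not. NF-Y boxes were present in windows of enzymes that were lower in ascites and in that of Ggps1, which was not. The level of Acat2 was not measured. A match describes letters only and does not show that a factor binds there.

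Signals below are log2 array values as deposited, and changes are differences of group means (ascites less FBS, log2 scale) with their standard error (SE), from limma fitted to all 22626 probe sets. "Fell" and "rose" are used for probe sets with a Benjamini-Hochberg adjusted p below 0.05 over all probe sets. Levels of different probe sets are not comparable with each other, so each probe set is compared with itself between arrays. The array values do not tell apart less RNA in every cell and fewer cells that express a gene.

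Transcripts of Hmgcs1, Mvk, Pmvk, Mvd, Idi1, Fdps and Fdft1 were lower in ascites on 14 probe sets, each with all ascites arrays below all FBS arrays. Of the 21 probe sets, 9 fell (4 of Hmgcs1, 2 of Idi1, 2 of Fdft1 and 1 of Fdps), 1 of Ggps1 rose, and 11 did not pass. Over all probe sets, 1.96% fell and 2.38% rose, 4.34% in either direction. The ascites arrays lay wholly below the FBS arrays for 17.2% of all probe sets and wholly above for 19.3%, against 14 and 3 of the 21. The median change of the 21 probe sets was -1.60, against 0.01 over all probe sets, and 13 of the 21 were at least 2-fold lower in ascites, against 2.78% of all. The calls depended on the set of arrays. No probe set of the array, and so none of these 21, passed when FBS replicate 1, FBS replicate 2, ascites replicate 2 or ascites replicate 3 was left out (3474 to 4852 probe sets had an unadjusted p below 0.05). The same held when FBS replicates 1 and 2 were averaged as 1 sample (3680). With an ascites array left out, the other ascites array stood alone and was assumed to vary like the FBS arrays, which alone gave the spread.

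**Figure D1:**
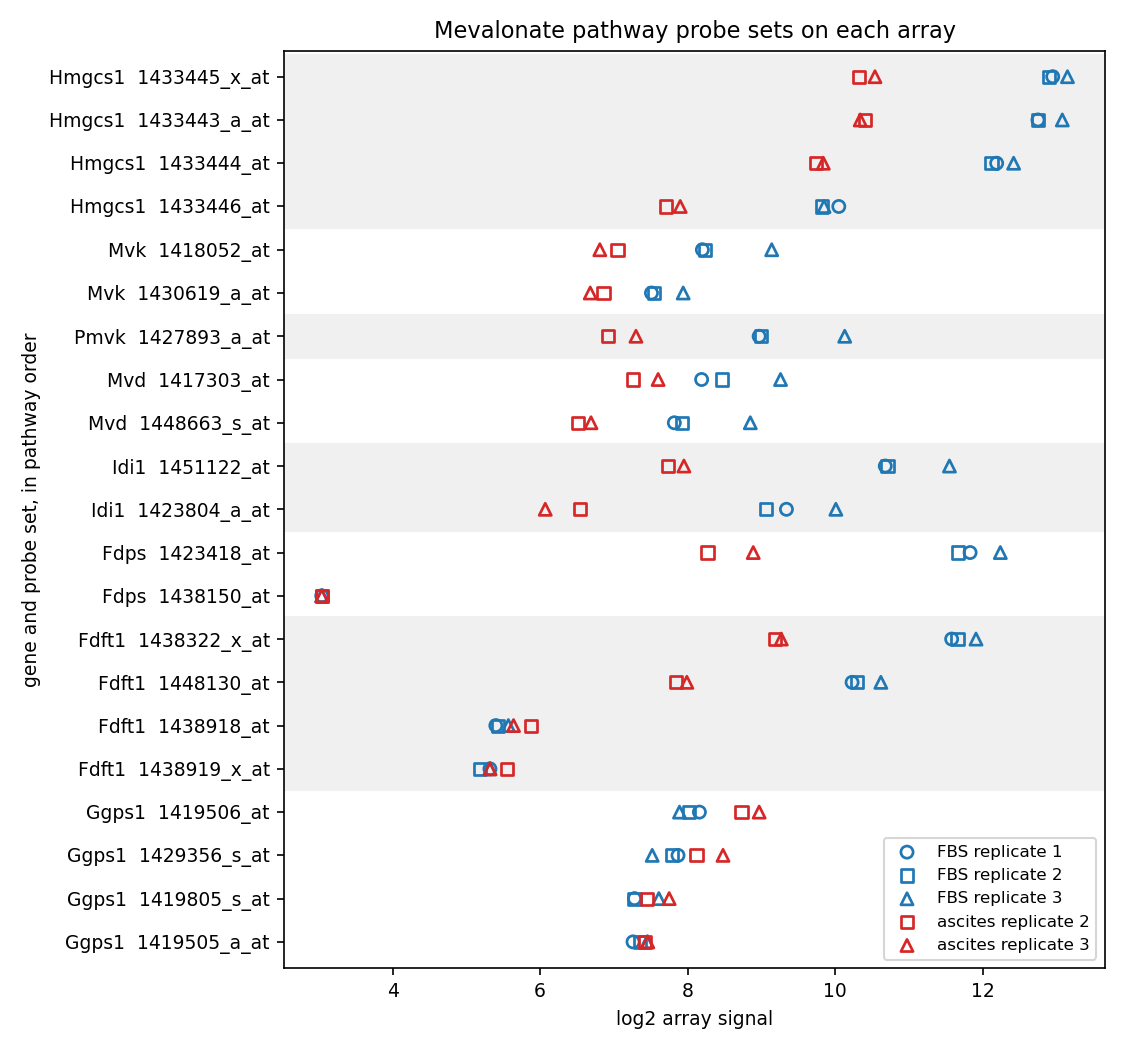
Log2 array signal (x axis) of each of the 21 probe sets (rows, in pathway order) on the 3 FBS arrays (blue) and the 2 ascites arrays (red), with 1 point per array. The red points lie left of all blue points for Hmgcs1, Mvk, Pmvk, Mvd, Idi1 and for the brighter probe sets of Fdps and Fdft1, and overlap them or lie to their right for Ggps1.

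Hmgcs1 encodes the cytosolic HMG-CoA synthase, which condenses acetyl-CoA with acetoacetyl-CoA, and all 4 of its probe sets fell. Probe set 1433445_x_at read 12.95, 12.90 and 13.15 on FBS replicates 1, 2 and 3, and 10.32 and 10.54 on ascites replicates 2 and 3. Probe set 1433443_a_at read 12.75, 12.75 and 13.08 in FBS and 10.40 and 10.34 in ascites. The groups were far apart on both, with a gap of 2.36 and 2.35 between the lowest FBS array and the highest ascites array. The change of 1433445_x_at was -2.57 (SE 0.12, 5.94-fold lower, adjusted p = 0.0141), and the other 3 probe sets changed by -2.49, -2.45 and -2.10, with adjusted p from 0.0141 to 0.0163. The smallest of these changes came from 1433446_at, which read 10.05, 9.82 and 9.85 in FBS and 7.71 and 7.90 in ascites. This was also the only Hmgcs1 probe set on which FBS replicate 3 did not lie above both other FBS arrays. Leaving out each array in turn moved the change of 1433445_x_at between -2.68 and -2.46.

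The kinases and the decarboxylase that turn mevalonate into isopentenyl diphosphate were lower in ascites on all 5 of their probe sets, but none passed the threshold. Mvk, mevalonate kinase, read 8.20, 8.24 and 9.14 in FBS and 7.05 and 6.81 in ascites on 1418052_at (change -1.60, SE 0.34, adjusted p = 0.086). Its other probe set, 1430619_a_at, read 7.51, 7.55 and 7.94 in FBS and 6.86 and 6.68 in ascites (change -0.90, SE 0.16, adjusted p = 0.0666). Both showed separate groups, with the FBS spread set by replicate 3. Pmvk, phosphomevalonate kinase, read 8.97, 9.0 and 10.13 in FBS and 6.92 and 7.30 in ascites on its 1 probe set, 1427893_a_at. Its change was -2.26 (SE 0.43, 95% interval -3.42 to -1.10, adjusted p = 0.0713). The estimate for Pmvk was about as large as those of Hmgcs1, with an SE of 0.43 in place of 0.11 to 0.13.

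Mvd, mevalonate diphosphate decarboxylase, makes isopentenyl diphosphate by the loss of carbon dioxide. Probe set 1448663_s_at read 7.82, 7.92 and 8.85 in FBS and 6.51 and 6.69 in ascites (change -1.60, SE 0.36, adjusted p = 0.0943). Probe set 1417303_at read 8.19, 8.47 and 9.26 in FBS and 7.26 and 7.60 in ascites (change -1.21, SE 0.36, adjusted p = 0.153). The groups did not overlap on either, although the gap on 1417303_at was 0.59, the smallest among the 14 probe sets lower in ascites.

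Idi1, which isomerises isopentenyl to dimethylallyl diphosphate and so starts chain growth, fell on both of its probe sets. Probe set 1451122_at read 10.68, 10.71 and 11.55 in FBS and 7.73 and 7.95 in ascites, a change of -3.14 (SE 0.32, 8.82-fold lower, adjusted p = 0.0271). Probe set 1423804_a_at read 9.34, 9.06 and 10.01 in FBS and 6.54 and 6.07 in ascites, a change of -3.16 (SE 0.34, adjusted p = 0.0289). The changes of the 2 probe sets differed by less than either SE.

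Fdps, farnesyl diphosphate synthase, had the largest change of the pathway. Probe set 1423418_at read 11.83, 11.67 and 12.24 in FBS and 8.27 and 8.89 in ascites, so that the ascites mean was 9.92% of the FBS mean on the linear scale (change -3.33, SE 0.27, adjusted p = 0.0215). By size, this was the 12th largest fall of all 22626 probe sets, and Idi1 held places 16 and 17. The 2 ascites arrays differed by 0.62 here, more than on any other of the 21 probe sets. The other probe set of Fdps, 1438150_at, read 3.04 on all 5 arrays, and 226 probe sets of the array likewise had the same value on every array. The 95% intervals of Fdps (-4.06 to -2.61), Idi1 1451122_at (-4.00 to -2.28) and Hmgcs1 1433445_x_at (-2.88 to -2.26) overlapped. Each was fitted alone on the same 5 arrays, so the overlap does not test a difference between probe sets. The order of these changes was not tested.

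Fdft1, squalene synthase, fell on 2 of its 4 probe sets. Probe set 1438322_x_at read 11.58, 11.66 and 11.91 in FBS and 9.18 and 9.27 in ascites (change -2.49, SE 0.12, adjusted p = 0.0152). Probe set 1448130_at read 10.23, 10.30 and 10.62 in FBS and 7.84 and 7.99 in ascites (change -2.47, SE 0.14, adjusted p = 0.0173). The estimates nearly coincided, although the x in 1438322_x_at marks a probe set whose probes may also bind unrelated transcripts. The same x is in the names of Hmgcs1 1433445_x_at and Fdft1 1438919_x_at. The s in the names of some Mvd and Ggps1 probe sets marks one shared by several transcripts. The other 2 probe sets were dim and did not follow. Probe set 1438918_at read 5.40, 5.43 and 5.57 in FBS and 5.88 and 5.64 in ascites (change 0.29, adjusted p = 0.20), and 1438919_x_at stayed between 5.19 and 5.55 on all arrays (change 0.16, adjusted p = 0.421).

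Ggps1, geranylgeranyl diphosphate synthase, acts beside squalene synthase on the non-sterol branch, and none of its 4 probe sets was lower in ascites. Probe set 1419506_at read 8.16, 8.02 and 7.89 in FBS and 8.73 and 8.97 in ascites and rose by 0.83 (SE 0.12, 1.77-fold, adjusted p = 0.0466). Probe set 1429356_s_at read 7.87, 7.79 and 7.52 in FBS and 8.12 and 8.48 in ascites (change 0.57, SE 0.17, adjusted p = 0.144). On these 2 probe sets every ascites array lay above every FBS array. On the other 2 the groups overlapped, with changes of 0.21 (95% interval -0.21 to 0.63) for 1419805_s_at and 0.08 (-0.12 to 0.28) for 1419505_a_at. The rise of 1419506_at passed in 6 of 13 alternative limma fits, where the adjusted p ranged from 0.0214 to 0.281. It did not pass with a variance trend on intensity (adjusted p = 0.0556) or with FBS replicates 1 and 2 averaged (0.17). Nor did it pass with a replicate block (0.281), or without FBS replicate 1 (0.165) or FBS replicate 2 (0.225).

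**Figure D2:**
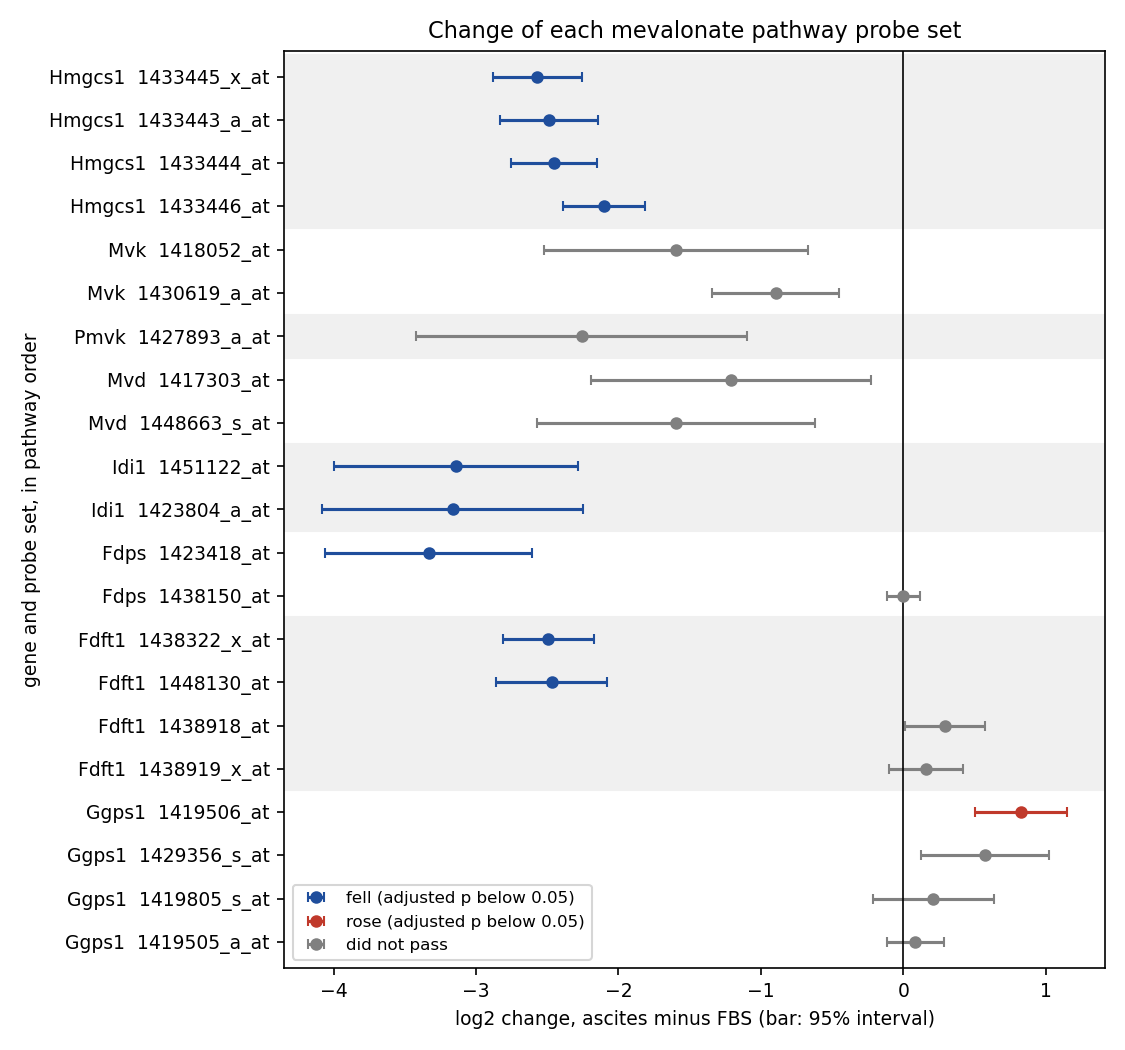
Log2 change, ascites minus FBS (x axis, point with 95% interval from limma), of the 21 probe sets in pathway order (rows), coloured by whether they fell, rose or did not pass at an adjusted p of 0.05. The intervals of Mvk, Pmvk and Mvd lie below 0 but are wide, from -3.42 to -0.23 between them, and those of Ggps1 lie above 0 for 2 probe sets and cross it for the other 2.

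On 3 probe sets the FBS mean was no higher than that of markers of cells that ID8 cultures should not hold. The 20 measured marker genes of leukocytes, endothelial cells, red blood cells and hepatocytes had group means from 3.40 to 6.81, and none of them passed the threshold in either direction. The 3 probe sets were 1438150_at of Fdps and the 2 dim probe sets of Fdft1, so none of them was shown to lie above background. In ascites, 1423804_a_at of Idi1 (6.30), 1448663_s_at of Mvd (6.60) and 1430619_a_at of Mvk (6.77) also lay within this range. Whether this made their changes smaller was not tested. Beside the brighter probe set of the same gene, the change was smaller for Mvk (-0.90 against -1.60). It was not smaller for Idi1 (-3.16 against -3.14) or Mvd (-1.60 against -1.21). Among markers of ID8 cells and epithelia, Krt8, Krt18, Krt19, Wt1, Upk3b and Msln were bright on every array. These read 10.83 or more on the probe set of highest mean for each gene. Epcam (5.87 in FBS) and Cdh1 (5.74) lay within the range of the other cell types' markers. Krt7 lay above this range on FBS replicates 1 and 2. On FBS replicate 3 (5.66) and in ascites (5.37 and 5.12) Krt7 lay within the range. Like most of the mevalonate enzymes, 7 of the 9 markers measured were lower in ascites (median -0.94). Of the 9, 2 fell, Krt18 by 1.43 (adjusted p = 0.0391) and Krt19 by 0.88 (adjusted p = 0.0466), where 2.32% of 12393 genes fell. The share of all genes lower by sign is not given here. The sum of their log2 values was 99.75, 99.83 and 92.38 on FBS replicates 1, 2 and 3 and 89.83 and 87.50 on ascites replicates 2 and 3. What part they play in the results was not tested.

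FBS replicate 3 was unlike the other FBS arrays. It differed from FBS replicates 1 and 2 by an SD of 0.411 and 0.406 over all probe sets, and these differed from each other by 0.13. All 9 measured ID8 and epithelial markers were lower on it than on both other FBS arrays, by amounts that differed widely. The difference from the mean of replicates 1 and 2 ran from -0.02 for Cdh1 to -2.38 for Krt7. Cdh1 and Epcam lay within the range of the other cell types' markers, as did Krt7 on replicate 3. No share over all probe sets is given for this count. Upk3b, a mesothelial marker, read 14.63 and 14.61 on FBS replicates 1 and 2, 12.66 on replicate 3, and 12.02 and 11.32 in ascites, whereas Krt19 read 13.19, 13.22 and 13.15 in FBS and 12.50 and 12.12 in ascites. Replicate 3 lay nearer to the ascites mean than to the mean of the other FBS arrays for 4 of the 9 (Upk3b, Wt1, Krt7 and Epcam) and not for the other 5, and on Msln it lay below both groups' other arrays. For 13 of the 14 mevalonate probe sets lower in ascites, by contrast, it was the highest array. On these 14 the highest array could only be an FBS array, several of them share a gene, and no share over all probe sets is given for this count. By size, mevalonate enzymes were higher on FBS replicate 3: its median excess over the mean of replicates 1 and 2 was 0.33 over the 21 probe sets, against 0.02 over all probe sets. The excess was unequal along the pathway. It was 1.15 for Pmvk, 0.92 and 0.41 for Mvk, 0.93 and 0.98 for Mvd and 0.86 and 0.81 for Idi1, but 0.49 for Fdps 1423418_at, 0.29 and 0.35 for the fallen probe sets of Fdft1, and -0.09 to 0.33 for Hmgcs1. The 2 Ggps1 probe sets that were higher in ascites had the opposite sign, at -0.20 and -0.31.

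Without FBS replicate 3, 13 of the 21 probe sets fell and 1 rose, where 8.25% of all probe sets fell. The 4 added were both Mvk probe sets (-1.29 and -0.76, adjusted p = 0.0183 and 0.0261), Pmvk (-1.88, adjusted p = 0.0193) and Mvd 1448663_s_at (-1.27, adjusted p = 0.0162). Mvd 1417303_at did not pass (-0.90, adjusted p = 0.0692). Over all alternatives the adjusted p ranged from 0.0183 to 0.317 for Mvk 1418052_at, from 0.019 to 0.303 for Mvk 1430619_a_at, from 0.0185 to 0.279 for Pmvk, and from 0.0162 to 0.30 and 0.0692 to 0.425 for the 2 Mvd probe sets. The FBS spread then rested on 2 nearly alike arrays, so these smaller p values may overstate the evidence. Changes of all 4 were smaller than with the array, while Hmgcs1 1433446_at moved from -2.10 to -2.13.

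**Figure D3:**
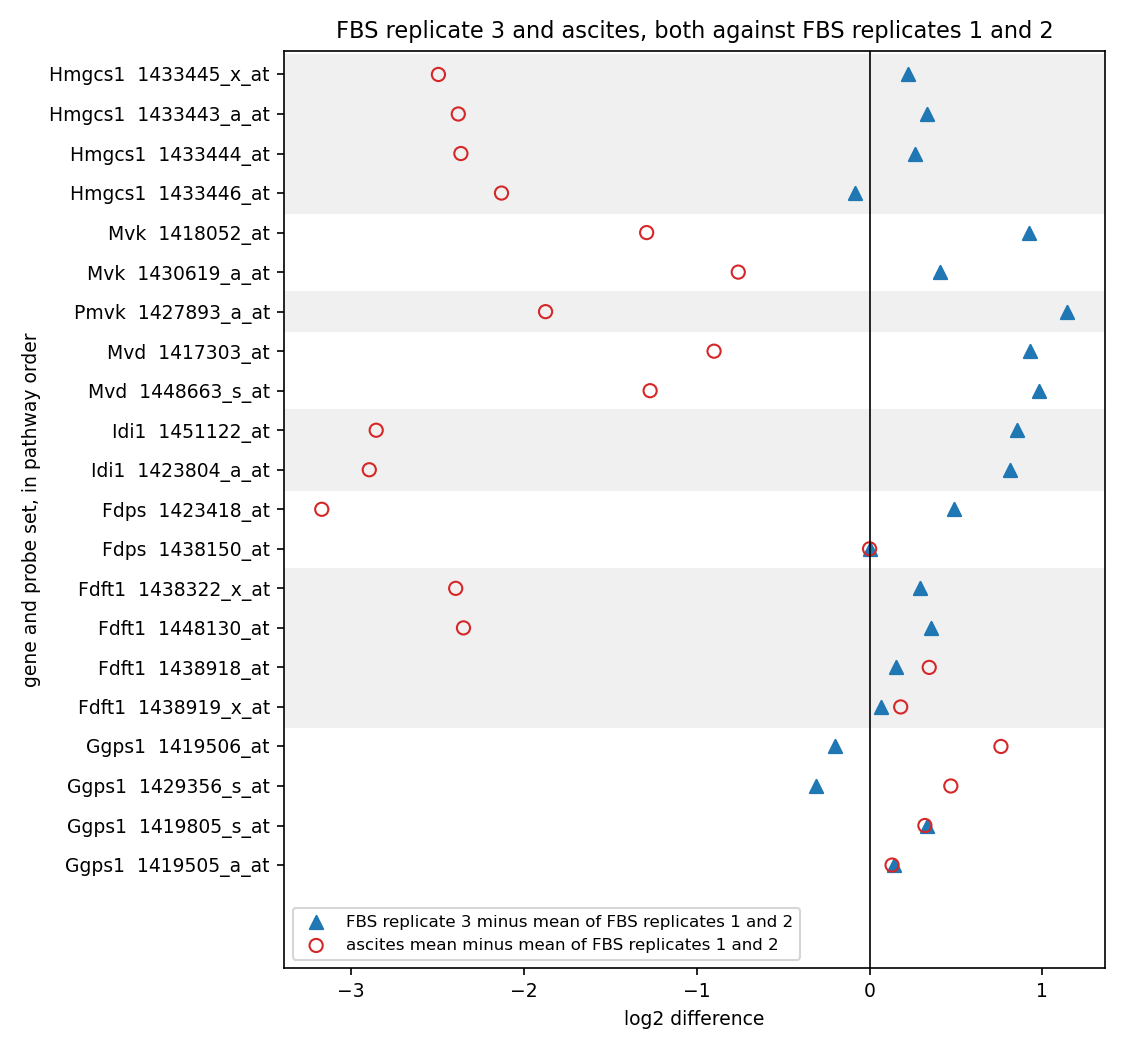
Log2 difference (x axis) from the mean of FBS replicates 1 and 2, for FBS replicate 3 (blue triangles) and for the mean of the 2 ascites arrays (red circles), for each probe set (rows). Triangles reach 0.41 to 1.15 for Mvk, Pmvk and Mvd, where the circles lie between -1.88 and -0.76, and stay at or below 0.33 for Hmgcs1, where the circles lie between -2.50 and -2.13.

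Other genes of the pathway were read from lists, with each gene given by its probe set of highest mean. Counted that way, 4 of the 8 mevalonate enzymes fell and 1 rose, where 2.32% of 12393 genes fell and 2.46% rose. Of the 11 measured enzymes from squalene to cholesterol all were lower in ascites and 6 fell, with a median change of -1.40. The smallest adjusted p values were those of Msmo1, a sterol methyl oxidase, at -1.98 (adjusted p = 0.0173), Cyp51, lanosterol demethylase, at -2.42 (adjusted p = 0.0192), and Ebp, a sterol isomerase, at -1.28 (adjusted p = 0.027). Of 2 enzymes that supply acetyl-CoA, Acly and Acss2, neither passed, and Acly, ATP citrate lyase, changed by -0.71 (adjusted p = 0.0823).

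Of 5 measured genes of the SREBP system only Srebf2 passed, the gene of SREBP2, which fell by 2.60 (SE 0.08, adjusted p = 0.00914). It read 10.59, 10.61 and 10.70 in FBS and 7.95 and 8.11 in ascites, and on this gene FBS replicate 3 lay close to the other FBS arrays. Of 7 genes of sterol uptake, transport and export, Stard4, a sterol carrier, fell by 3.09 (adjusted p = 0.021) and Abca1, a sterol exporter, rose by 2.73 (adjusted p = 0.038). Abca1 read 7.26, 7.16 and 6.43 in FBS and 10.00 and 9.35 in ascites, while its other 2 probe sets, at 4.23 or less on every array, changed by 0.03 and 0.00.

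Enzymes that use isoprenoid diphosphates, such as prenyltransferases and dolichol synthesis enzymes, had changes between -0.13 and 0.34. None of 9 measured genes passed (limma, none of the 9 at an unadjusted p below 0.05, where 22.9% of all probe sets had one), which at a background of 4.34% called is no result about these genes. The median change was 0.02, and the gene with the smallest p was Nus1, a subunit of the dolichol-making cis-prenyltransferase, at 0.32 (adjusted p = 0.222). Of 3 measured mitochondrial thiolase and ketone body enzymes, Acat1, the mitochondrial acetoacetyl-CoA thiolase, fell by 0.83 (SE 0.07, adjusted p = 0.0215), and Oxct1 (-0.60) and Bdh1 (-0.15) did not pass. The calls for these lists share the dependence on single arrays given above.

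**Figure D4:**
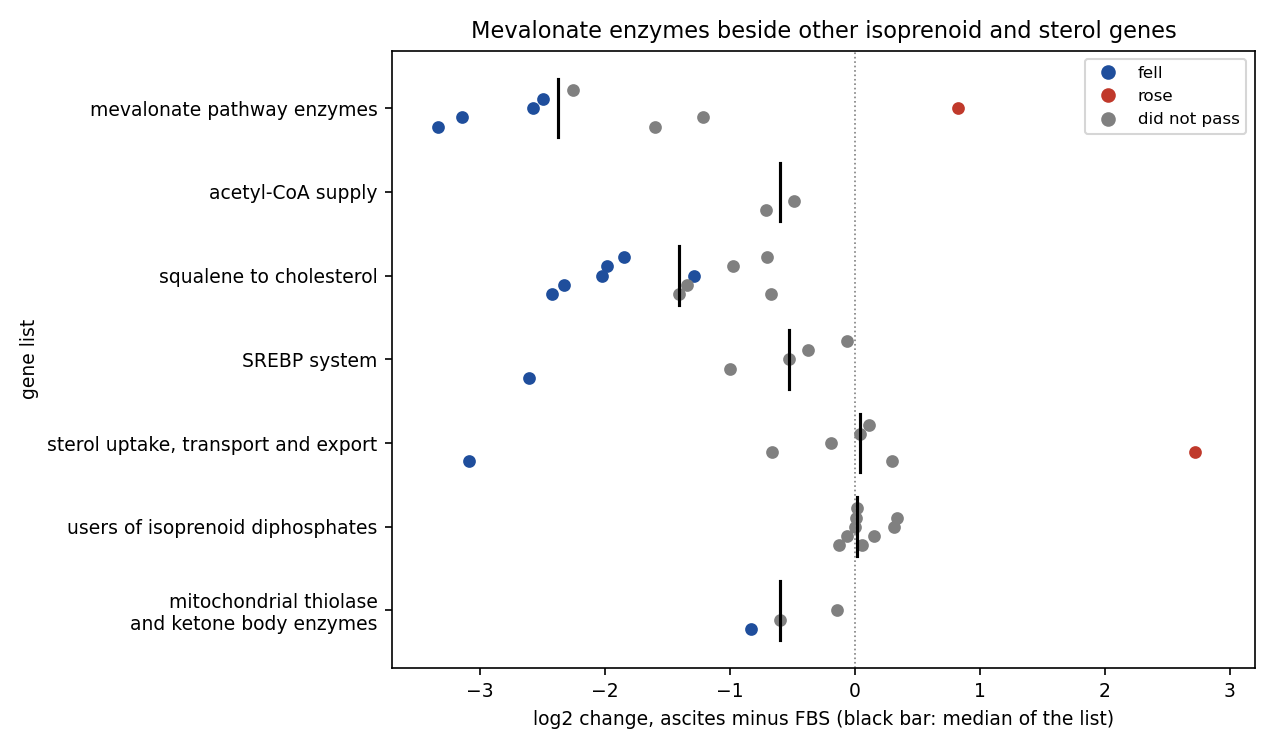
Log2 change, ascites minus FBS (x axis), of each measured gene in 7 gene lists (rows, 1 point per gene, vertical offsets only separate points), coloured by call, with the median of each list as a black bar. Mevalonate enzymes have a median of -2.37, enzymes from squalene to cholesterol -1.40, and users of isoprenoid diphosphates 0.02.

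The genes whose pattern over the 5 arrays was nearest to the median pattern of the mevalonate probe sets were found by the root mean square distance between centred values. Each gene was given by its brightest probe set. The median pattern of the 21 probe sets was 0.31, 0.36 and 1.16 on FBS replicates 1, 2 and 3 and -1.05 and -1.08 on ascites replicates 2 and 3. The nearest genes were Aurkb, a mitotic kinase (distance 0.08), Cdc7, a kinase of replication origins (0.09), Mylk, myosin light chain kinase (0.124), Uhrf1, a chromatin protein of replicating cells (0.139), and Krt80, a keratin (0.146). None of these 5 passed the threshold (changes of -1.73 to -1.43, adjusted p from 0.0533 to 0.101). Of the enzymes' own probe sets, Mvk 1418052_at (0.103) and Mvd 1448663_s_at (0.114) lay closest to that median pattern and Ggps1 1419506_at farthest (1.29). The probe sets that fell lay farther from it than the 5 genes did, from 0.41 (Hmgcs1 1433446_at) to 0.85 (Fdps 1423418_at). The 5 genes are therefore near the pattern of those Mvk and Mvd probe sets, and not near that of the probe sets that fell.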

How the data were processed

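Affymetrix Expression Console was used, per the submitters' processing notes. Which version and summary method it ran is not given in the sources used here. Deposited values, 1 per probe set and array, are judged from their range to be on the log2 scale, and the authors' normalization is not stated. Array medians lay between 7.39 and 7.47, so the values were used as deposited. They carry no detection call, and the number of arrays limits the precision. Of 22690 probe sets, 64 array controls were left out. The platform annotation named 1 gene for 20380 of the other probe sets, several for 691, and did not list 1555. RefSeq (GRCm38.p6) gave 0 changed symbols.

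All 22626 probe sets were fitted in R 4.3.3 by limma 3.58.1 (lmFit, eBayes, two-sided tests without covariate or filter, 3 residual and 1.31 prior degrees of freedom), and p values were adjusted by the Benjamini-Hochberg method over all of them. The procedure was also run on simulated arrays with known changes and noise drawn independently for each array. The real FBS arrays differ from that, with replicates 1 and 2 nearly alike and replicate 3 apart, so the simulation does not vouch for the calls. Alternatives were 1 probe set per gene, a filter on dim probe sets, quantile normalization, median centring, an intensity trend, array weights, a replicate block, averaging of FBS replicates 1 and 2, and leaving out each array. The enzymes and gene lists were chosen with earlier results of these data known. All probe sets of the enzymes are named, along with up to 3 genes per list with the smallest adjusted p (1 where none passed) and the 5 genes of nearest pattern. Genes named beyond this rule (Acss2, Oxct1, Bdh1 and the cell type markers) describe their list. Some genes of the lists had no named probe set, and their levels are not analysed here.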

Additional observations from a re-analysis of the deposited data

How the results depend on the processing

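The 20 mevalonate probe sets that differed between the groups kept the direction of their change in all 248 recomputations under 13 alternatives, while their calls did not hold under all of them. The kept direction was largely fixed in advance and is no measure of robustness. Where the groups did not overlap (14 probe sets below and 3 above), leaving out, weighting or averaging arrays cannot reverse a sign. An intensity trend, 1 probe set per gene and the filter on dim probe sets leave each change as it was. With 982 probe sets called in all (444 fallen), 9 mevalonate probe sets fallen and 1 risen as reported, leaving out each array in turn gave 0 to 3559 called (0 to 1866 fallen), 0 to 13 mevalonate probe sets fallen and 0 to 1 risen, with a median change of -1.79 to -1.29. The upper counts came from leaving out FBS replicate 3, and the counts of 0 from leaving out any other array (without an ascites array, the spread came from the FBS arrays alone). With FBS replicates 1 and 2 averaged, 0 probe sets were called (3680 at an unadjusted p below 0.05), 0 mevalonate probe sets fell and 0 rose. With the replicate number as a block, 0 probe sets were called (3417 at an unadjusted p below 0.05), 0 mevalonate probe sets fell and 0 rose (lowest adjusted p 0.279), in a fit with 1 residual degree of freedom. The numbers were not shown to pair the arrays: the differences of replicate 3 from replicate 2 in FBS and in ascites correlated at 0.0458 over probe sets. Array weights gave 3728 called and 1837 fallen, with 13 mevalonate probe sets fallen, and gave FBS replicate 3 a weight of 0.214 against 2.47 and 3.46 for the other FBS arrays. Median centring gave 1488 called, 711 fallen and 10 mevalonate probe sets fallen. With an intensity trend 0 mevalonate probe sets rose (Ggps1 1419506_at, adjusted p = 0.0556). With 1 probe set per gene, 654 genes were called, 4 mevalonate enzymes fell and the median change was -2.37, since only 8 probe sets entered. Leaving out the lowest 25% of probe sets gave 11 mevalonate probe sets fallen and 1 risen, and quantile normalization 9 and 1. Where a setting's own construction does not show it, the cause was not tested.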
